A study of Mus musculus with 16 samples.

Results

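Granzymes are serine proteases that killer lymphocytes store in cytotoxic granules, and perforin is the protein that opens the membrane of a target cell so that they can enter it. The 10 genes described here are Gzma, Gzmb, Gzmc, Gzmd, Gzme, Gzmf, Gzmg, Gzmk, Gzmm and Prf1, out of 18193 genes named on the array. They were taken by name. A probe set was used only where its annotation gave 1 of these genes alone. Where a gene had more than 1, it was represented by the brightest, judged by the average of the 16 arrays. Expression was measured on a 3′ expression microarray in unsorted pieces of subcutaneous tumors grown from PDA30364, a single line from a mouse pancreatic ductal adenocarcinoma, in C57BL/6-Ly5.1 mice of 6 to 12 weeks of age. The 4 groups received gemcitabine, a nucleoside analog, with agonist anti-CD40 antibody (GEM/anti-CD40 Ab), anti-CD40 Ab with vehicle, GEM with isotype control IgG, or vehicle with control IgG (control), with 4 arrays in each. Mice received GEM (120 mg/kg, days 1, 5, 12 of treatment) and antibody (days 3, 4, 6, 14), or their controls, and tumors were taken on day 22 or 23 after inoculation. One animal number in the labels is shared by 2 arrays, GEM replicates 3 and 4. The differences between these 2 arrays had a standard deviation of 0.26 on the log2 scale, within the range of 0.211 to 0.418 for pairs of arrays of the same group, and they were kept as separate samples. All levels below are normalised log2 intensities, which order the samples for 1 gene but not the genes against each other.

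Mouse granzyme genes lie in 3 places. Gzma and Gzmk, which encode tryptases, lie close together on chromosome 13, and Gzmm and Prf1 lie on chromosome 10. Gzmb, which encodes the granzyme that cleaves caspases and Bid, stands at one end of the chymase locus on chromosome 14. Beside it stand Gzmc, Gzmf, Gzmg, Gzmd and Gzme, a rodent expansion of the family, and beyond them Ctsg (cathepsin G) and the mast cell protease genes. In mouse T cells in culture, granzyme C is known to appear later after stimulation than granzyme B. In an unsorted piece of tumor, fewer cells of a type and less RNA per cell cannot be told apart.

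The promoters of Gzmc to Gzmg were much alike and that of Gzmb was not. The sequences, from RefSeq build GRCm38.p6, are shown because these neighbours followed different patterns in the tumors. Whether promoter sequence had a part in those patterns was not tested. The promoter of Gzmn, which lies between Gzmg and Gzmf but is not a member, was not aligned with them. All 10 members were found in the promoter table. Over the 250 bases before the start site, pairs among Gzmc to Gzmg were identical at 79.2% to 95.2% of positions in a gapped alignment (10 pairs), whereas Gzmb matched them at 56.4% to 60.8%. Pairs among Gzma, Gzmb, Gzmk, Gzmm and Prf1 matched at 54.8% to 62.8%. The last 120 bases before the start are printed on the minus strand, at chr14:56234658-56234777 for Gzmc, chr14:56132594-56132713 for Gzmd, chr14:56120626-56120745 for Gzme, chr14:56211408-56211527 for Gzmf, chr14:56159580-56159699 for Gzmg and chr14:56262335-56262454 for Gzmb. The capitals mark the longest stretch that the windows of Gzmc to Gzmg share, 20 bases.
Gzmc: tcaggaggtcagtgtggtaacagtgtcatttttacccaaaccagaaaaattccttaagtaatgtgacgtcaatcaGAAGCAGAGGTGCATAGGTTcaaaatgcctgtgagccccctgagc
Gzmd: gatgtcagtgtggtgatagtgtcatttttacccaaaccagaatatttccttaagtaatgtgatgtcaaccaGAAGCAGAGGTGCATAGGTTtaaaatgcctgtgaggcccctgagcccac
Gzme: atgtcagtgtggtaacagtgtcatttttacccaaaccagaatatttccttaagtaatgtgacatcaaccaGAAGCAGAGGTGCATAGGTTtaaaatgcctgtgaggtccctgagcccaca
Gzmf: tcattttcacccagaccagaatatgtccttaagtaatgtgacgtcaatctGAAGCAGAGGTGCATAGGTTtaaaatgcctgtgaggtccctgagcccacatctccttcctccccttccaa
Gzmg: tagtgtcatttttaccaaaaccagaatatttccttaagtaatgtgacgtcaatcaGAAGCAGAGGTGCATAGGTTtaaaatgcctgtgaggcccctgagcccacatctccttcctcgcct
Gzmb: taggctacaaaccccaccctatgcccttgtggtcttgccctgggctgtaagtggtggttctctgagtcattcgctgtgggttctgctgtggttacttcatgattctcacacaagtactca
On either strand, this stretch was found in 5 of the 32851 windows in the table, those of the same 5 genes. The cAMP response element TGACGTCA, searched on both strands like the motifs that follow, was in the windows of Gzmc, Gzmf and Gzmg and in 1.55% of all windows. The AP-1 motif TGANTCA was in that of Gzmb alone among the members and in 6.75% of all windows. The RUNX motif TGTGGT was in 9 of the 10 member windows, all but that of Gzmk, and in 14.0% of all windows. The GAS motif TTCNNNGAA was in that of Gzmm alone and in 7.02% of all windows.

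Whether each member could be read above background was examined first. As the table holds no detection calls, the background of an array was taken as the 95th percentile of 81 probe sets for chemosensory receptors, genes with no known role in a tumor, which lay between 4.83 and 5.23. All 10 members were above it on at least 3 of 4 arrays in GEM/anti-CD40 Ab tumors and in anti-CD40 Ab tumors, 9 in GEM tumors (all but Gzma) and 7 in control tumors (all but Gzma, Gzmg and Gzmk). Of all probe sets, 58.6% passed in GEM/anti-CD40 Ab tumors, 57.8% in anti-CD40 Ab tumors, 58.1% in GEM tumors and 56.0% in control tumors. With the 99th percentile, 9, 7, 7 and 5 members passed in the same groups. Gzmn, the other granzyme gene of the locus, was between 3.05 and 3.42 on all 16 arrays and so below background on each of them.

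A pair of patterns stood out among the members, and this grouping was made after the values were seen. Gzma, Gzmb and Gzmk were highest in tumors that had received anti-CD40 Ab. Gzmc, Gzmd, Gzme, Gzmf and Gzmg were high in every tumor that had received GEM, with or without the antibody. Gzmm and the representative probe set of Prf1 stayed within 0.34 and 0.55 log2 units over all 16 arrays.

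**Figure D1:**
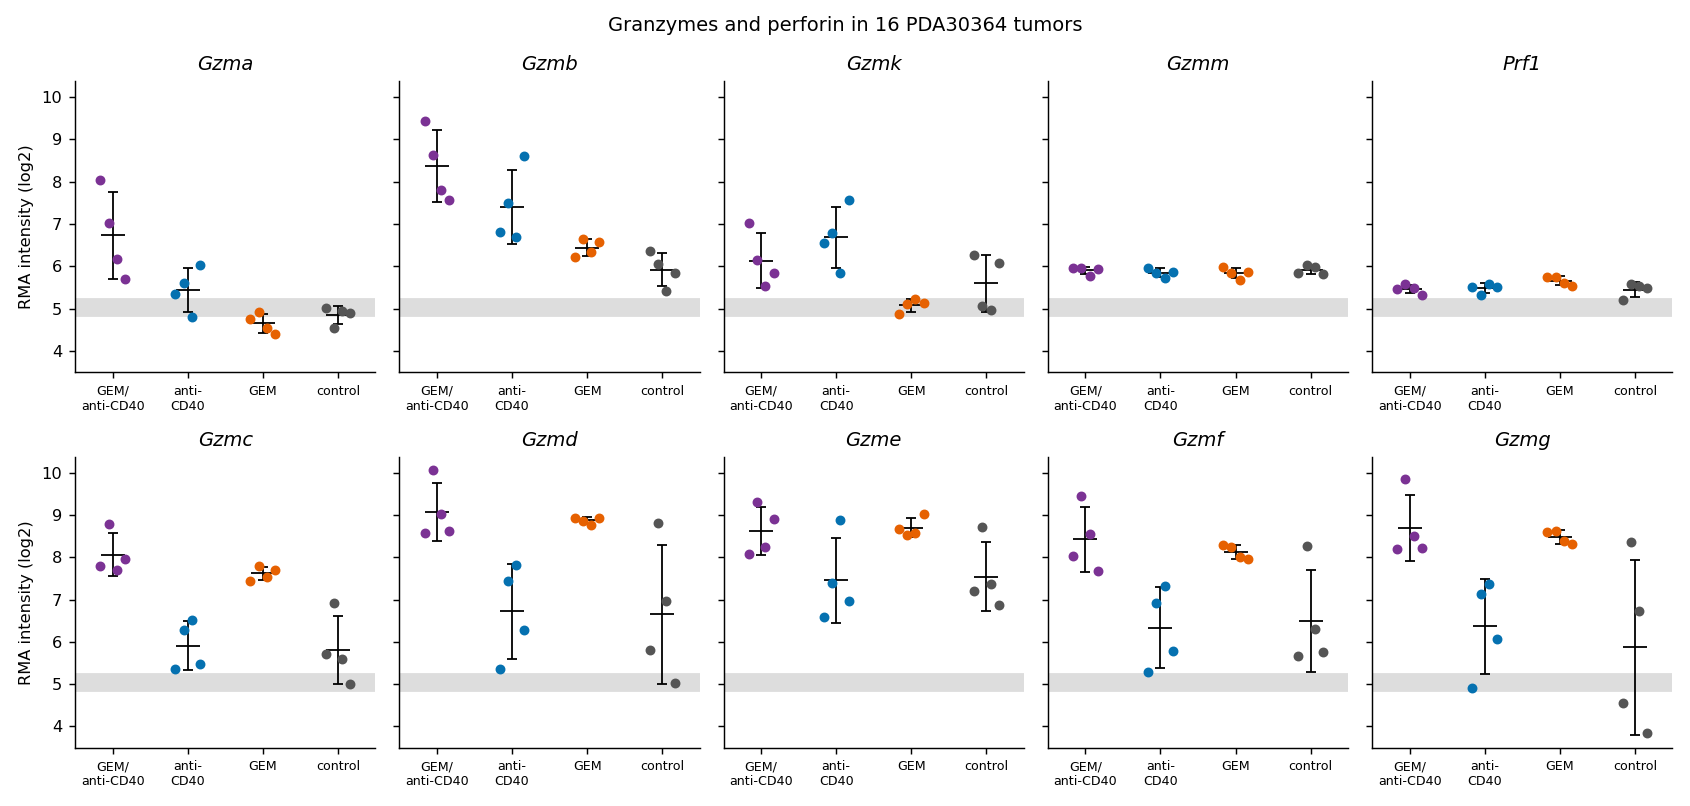
Normalised log2 intensity (y axis) of each member in GEM/anti-CD40 Ab, anti-CD40 Ab, GEM and control tumors (x axis). Points are arrays, black bars the mean and SD of 4 arrays, and the grey band the range of the background level over the arrays, 4.83 to 5.23. Gzma, Gzmb and Gzmk stand highest in groups with anti-CD40 Ab, and Gzmc to Gzmg in both groups with GEM.

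Gzmb had 9.44, 8.64, 7.81 and 7.57 in GEM/anti-CD40 Ab tumors and 6.82, 7.50, 6.70 and 8.61 in anti-CD40 Ab tumors. It had 6.21, 6.65, 6.34 and 6.57 in GEM tumors and 6.36, 6.06, 5.42 and 5.84 in control tumors. Each of the 8 tumors with the antibody was above each of the 8 without it, the lowest with it being anti-CD40 Ab replicate 3 at 6.70 and the highest without it GEM replicate 2 at 6.65. How many of all probe sets separate 8 arrays from 8 in this way was not counted, for either agent. Over both backgrounds, that is with GEM as a term in a fit of all 16 arrays, Gzmb was higher with anti-CD40 Ab by 1.71 on the log2 scale (SE 0.286, 3.26-fold, 8 arrays against 8, limma adjusted p = 0.03). It was the only one of the 10 members called, against 0.371% of the 45037 probe sets tested (167). The estimate stayed between 1.52 and 1.83 with any 1 array left out. The call was lost without control replicate 2 (adjusted p = 0.0502) or 3 (0.0684), anti-CD40 Ab replicate 4 (0.0577), GEM replicate 1 (0.079), 2 (0.0539), 3 (0.0845) or 4 (0.0662), or GEM/anti-CD40 Ab replicate 2 (0.0581). It was also lost when GEM replicates 3 and 4, which share an animal number, were averaged (1.69, limma adjusted p = 0.07) and with a trended and robust variance prior (0.0509).

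Gzma had 8.04, 7.02, 6.18 and 5.69 in GEM/anti-CD40 Ab tumors and 5.35, 5.60, 4.79 and 6.04 in anti-CD40 Ab tumors. It had 4.75, 4.91, 4.55 and 4.39 in GEM tumors and 5.01, 4.55, 4.94 and 4.90 in control tumors. In both of these groups 1 of 4 arrays was above background. Only anti-CD40 Ab replicate 3 among the tumors with the antibody fell within the range of those without it. The difference over both backgrounds was 1.34 (SE 0.318, adjusted p = 0.0743 by limma) and was not called.

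Gzmk, the granzyme of memory T cell subsets, had 7.03, 6.14, 5.53 and 5.83 in GEM/anti-CD40 Ab tumors and 6.55, 6.78, 5.83 and 7.57 in anti-CD40 Ab tumors. It had 4.86, 5.11, 5.23 and 5.12 in GEM tumors and 6.27, 5.07, 4.97 and 6.07 in control tumors. Control replicates 1 and 4 lay within the range of the tumors with the antibody, whereas the GEM tumors lay below it. The difference over both backgrounds was 1.07 (SE 0.257, limma adjusted p = 0.0781), again not called. Unlike Gzma and Gzmb, Gzmk had a higher mean in anti-CD40 Ab tumors (6.68 ± 0.717, SD, n = 4) than in GEM/anti-CD40 Ab tumors (6.13 ± 0.648), but these 2 groups overlapped.

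Gzmc had 7.80, 8.80, 7.70 and 7.96 in GEM/anti-CD40 Ab tumors and 7.44, 7.80, 7.53 and 7.71 in GEM tumors. It had 5.37, 6.28, 6.52 and 5.49 in anti-CD40 Ab tumors and 5.72, 6.91, 5.60 and 5.00 in control tumors. The 8 tumors with GEM lay at 7.44 or above and the 8 without GEM at 6.91 or below. In the same fit of 16 arrays the difference with GEM, a comparison added after the values were seen, was 1.98 (SE 0.245, 3.95-fold, 8 arrays against 8, limma adjusted p = 0.0205). Gzmc was the only probe set of the 45037 called in that comparison (0.00222%). The estimate stayed between 1.86 and 2.16 with any 1 array left out. The call was lost without control replicate 1 (adjusted p = 0.0744), 3 (0.0824) or 4 (0.0507), anti-CD40 Ab replicate 4 (0.0745), GEM replicate 1 (0.0530), 3 (0.0605) or 4 (0.0769), or GEM/anti-CD40 Ab replicate 1 (0.0557). It was also lost with GEM replicates 3 and 4 averaged (1.99, limma adjusted p = 0.0679) and with a trended and robust variance prior (0.0871).

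Gzmd had 8.59, 10.07, 9.03 and 8.63 in GEM/anti-CD40 Ab tumors and 8.94, 8.86, 8.77 and 8.93 in GEM tumors. It had 5.36, 7.45, 7.82 and 6.28 in anti-CD40 Ab tumors and 5.81, 8.82, 6.96 and 5.03 in control tumors. The 4 GEM tumors were within 0.17 of each other, while control tumors spanned 3.79, a 13.8-fold range in intensity. Gzmg was wider still, with 8.21, 9.85, 8.50 and 8.23 in GEM/anti-CD40 Ab tumors, 8.61, 8.63, 8.38 and 8.31 in GEM tumors, 4.92, 7.14, 7.37 and 6.07 in anti-CD40 Ab tumors, and 4.56, 8.36, 6.74 and 3.84 in control tumors. Gzmf had 8.03, 9.46, 8.55 and 7.69 in GEM/anti-CD40 Ab tumors, 8.29, 8.24, 8.02 and 7.96 in GEM tumors, 5.29, 6.93, 7.33 and 5.78 in anti-CD40 Ab tumors, and 5.66, 8.26, 6.31 and 5.76 in control tumors. For each of these 3 genes a single tumor without GEM, control replicate 2, reached into the range of the tumors with GEM. Gzme, represented like Gzmd by a probe set whose probes may bind related transcripts, had 8.07 to 9.30 in GEM/anti-CD40 Ab tumors, 8.52 to 9.03 in GEM tumors, 6.60 to 8.89 in anti-CD40 Ab tumors and 6.87 to 8.72 in control tumors. Here 2 tumors without GEM reached into that range, control replicate 2 and anti-CD40 Ab replicate 3. A further probe set annotated to both Gzmd and Gzme averaged 9.09 ± 0.589 in GEM/anti-CD40 Ab tumors, 9.29 ± 0.219 in GEM tumors, 7.81 ± 1.25 in anti-CD40 Ab tumors and 7.98 ± 0.856 in control tumors (SD, n = 4 each).

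The differences with GEM over both backgrounds for these 4 genes were 2.29 for Gzmd (SE 0.456), 2.46 for Gzmg (SE 0.536), 1.86 for Gzmf (SE 0.378) and 1.16 for Gzme (SE 0.31), and none was called (limma adjusted p = 0.45, 0.569, 0.45 and 0.91). Control replicate 2, the tumor with the highest level of all 5 genes in its group, also carried skin transcripts. The mean of 8 keratinocyte genes was 9.14 there, against 4.87 to 5.12 in the other control tumors. This array was then left out, a choice made after the values were seen. Without it, the difference with GEM was called for Gzmc (2.16, limma adjusted p = 0.000484), Gzmd (2.62, 0.0406) and Gzmf (2.15, 0.0406). Leaving out the control tumor with the highest levels raises these differences by itself, so the calls are no separate support. The keratinocyte mean was also high in anti-CD40 Ab replicate 2 (7.14), where Gzmd was 7.45 and Gzmc 6.28. It was 4.87 in anti-CD40 Ab replicate 3, where Gzmd (7.82) and Gzmc (6.52) were the highest of that group. The mean was between 4.97 and 5.08 in GEM/anti-CD40 Ab tumors and between 4.98 and 5.62 in GEM tumors. Whether the skin tissue itself had a part in the levels of Gzmc to Gzmg was not tested.

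**Figure D2:**
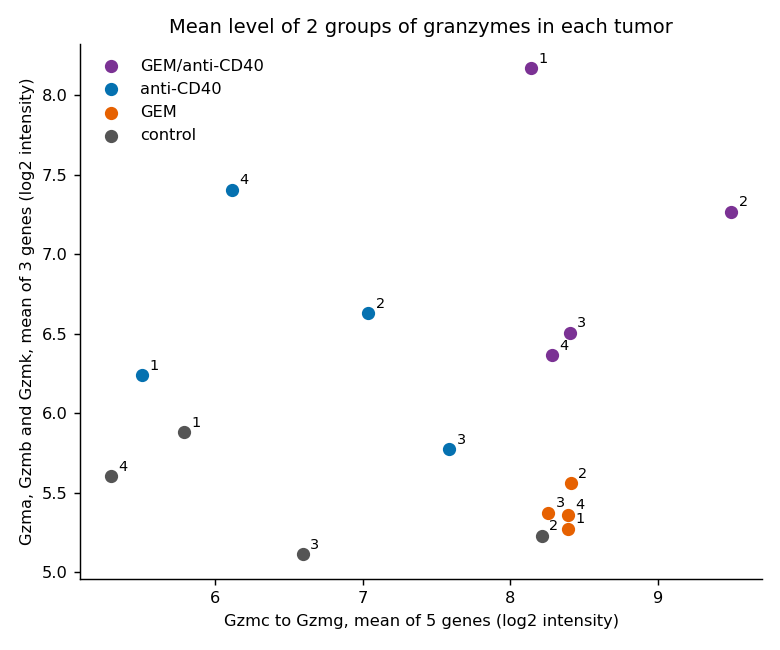
Mean log2 intensity of Gzmc to Gzmg (5 genes, x axis) against that of Gzma, Gzmb and Gzmk (3 genes, y axis) in each tumor, coloured by group and numbered by replicate. The 8 tumors with GEM lie between 8.14 and 9.50 on the x axis, a range that control replicate 2 also reaches with 8.21, while GEM tumors lie between 5.27 and 5.56 on the y axis.

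In the fit of 16 arrays Gzmb was thus the member called for the antibody and Gzmc the member called for GEM, both calls being lost under the settings just given. The intervals of the reverse pairings, none of them called, were as follows. For anti-CD40 Ab the 95% interval was -0.24 to 0.80 for Gzmc, -0.83 to 1.10 for Gzmd, -0.73 to 0.58 for Gzme, -0.73 to 0.87 for Gzmf and -0.78 to 1.49 for Gzmg. For GEM it was 0.13 to 1.35 for Gzmb, -0.13 to 1.22 for Gzma and -1.08 to 0.01 for Gzmk. No member was called for an interaction, that is for a response to the antibody that differed between GEM and vehicle backgrounds, and neither was any other probe set (0%, with 5.24% at an unadjusted p under 0.05, by limma). Gzma was the one member with an unadjusted p under 0.05 there (1.49, SE 0.534, limma adjusted p = 0.89), its difference with the antibody being 2.08 on the GEM background and 0.60 on the vehicle background.

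**Figure D3:**
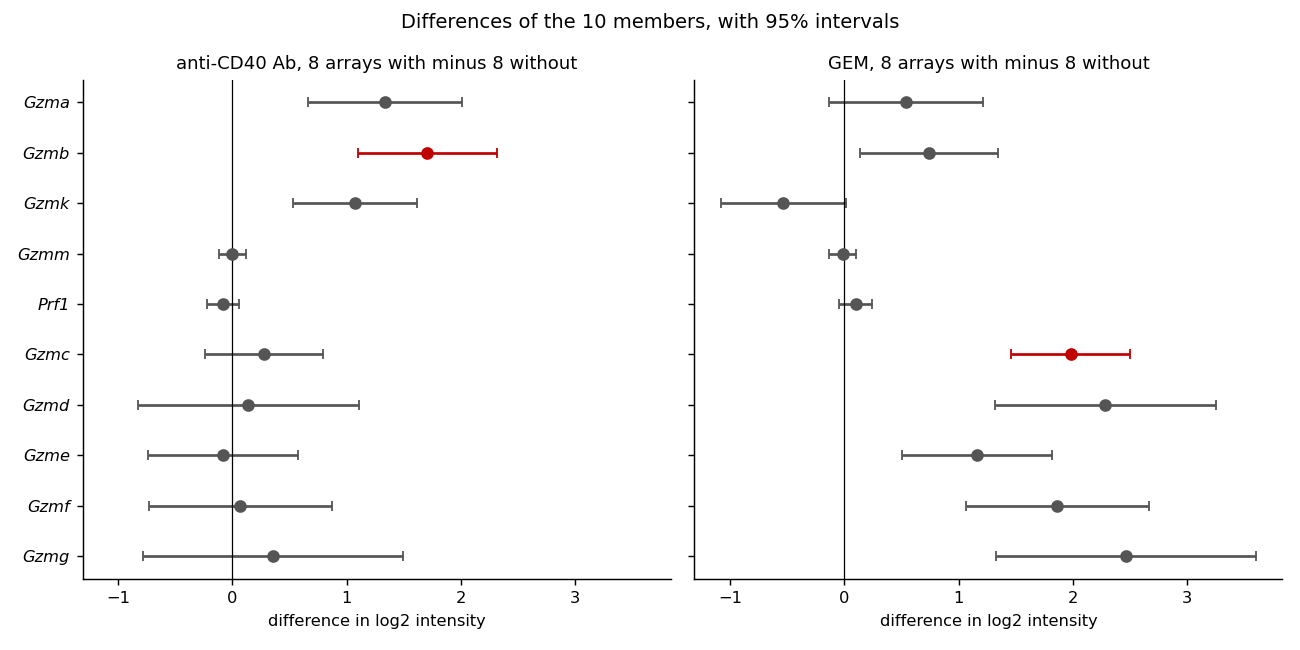
Difference in log2 intensity (x axis) for the 10 members (y axis) between the 8 arrays with and the 8 without anti-CD40 Ab (left panel) and GEM (right panel), with 95% intervals. Red marks an adjusted p under 0.05, which Gzmb has on the left with 1.71 and Gzmc on the right with 1.98.

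With 4 tumors against 4, no member was called in any of the 5 comparisons between single groups. Against control, GEM/anti-CD40 Ab had 7 members with an unadjusted p under 0.05, a level that 9.58% of all probe sets passed. The differences were 2.44 for Gzmb (SE 0.389, limma adjusted p = 0.214), 2.26 for Gzmc (SE 0.391, 0.278) and 1.88 for Gzma (SE 0.435, 0.395). These 3 were also the members whose 4 treated tumors all lay above the 4 control tumors, as 2.25% of all probe sets did, while 0.0178% of probe sets (8) were called. When all 16 arrays entered the fit, Gzmb and Gzmc were called in this comparison (limma adjusted p = 0.039 and 0.03).

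Of anti-CD40 Ab against control, the differences were 1.49 for Gzmb (SE 0.39, limma adjusted p = 0.807), 1.09 for Gzmk (SE 0.398, 0.807) and 0.60 for Gzma (SE 0.231, 0.807). Gzmb alone among the members had no overlap, against 1.41% of all probe sets, and 0% of probe sets were called. At an unadjusted p under 0.05 there were these 3 members and 6.08% of all probe sets. The exact permutation p for Gzmb was 0.0286, two-sided, the smallest that 4 arrays against 4 can give.

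Of GEM against control, the members of the chymase locus led, with 1.81 for Gzmc (SE 0.332, limma adjusted p = 0.459), 2.61 for Gzmg (SE 0.834, 0.786), 2.22 for Gzmd (SE 0.664, 0.786), 1.63 for Gzmf (SE 0.493, 0.786) and 1.16 for Gzme (SE 0.342, 0.786). Gzmc alone had no overlap (1.58% of all probe sets), and 0% of probe sets were called. At an unadjusted p under 0.05 there were 7 members, these 5 with Gzmb (0.52, SE 0.185) and Prf1 (0.21, SE 0.094), and 5.72% of all probe sets. Without control replicate 2, Gzmc (2.18, limma adjusted p = 0.0182), Gzmf (2.22, 0.0181) and Gzme (1.55, 0.0423) were called. That tumor had the highest level of these genes in its group and was left out after the values were seen, so these calls are no separate support.

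Of GEM/anti-CD40 Ab against GEM, the differences were 2.08 for Gzma (SE 0.431), 1.92 for Gzmb (SE 0.359) and 1.05 for Gzmk (SE 0.275). All 3 separated the groups without overlap, as 2.85% of all probe sets did, but 0% were called (limma adjusted p = 0.197, 0.197 and 0.241). At an unadjusted p under 0.05 there were 4 members, among them the representative of Prf1 (-0.20, SE 0.077), and 11.6% of all probe sets. Gzmc to Gzmg overlapped between these groups.

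Of GEM/anti-CD40 Ab against anti-CD40 Ab, the differences were 2.15 for Gzmc (SE 0.313), 2.35 for Gzmd (SE 0.539), 2.10 for Gzmf (SE 0.503) and 2.32 for Gzmg (SE 0.559). These 4 separated the groups without overlap, against 1.03% of all probe sets, and 0% were called (limma adjusted p = 0.937 for each). Gzmc ranked 2 of the 45037 probe sets by p here, 1 in the comparison over both backgrounds and 35 in GEM against control. GEM against control shares no arrays with this comparison, whereas the fit over both backgrounds holds all 16. At an unadjusted p under 0.05 there were 6 members and 4.60% of all probe sets. Besides Gzmc, Gzmd, Gzmf and Gzmg, these were Gzme (1.165, SE 0.474) and Gzma (1.29, SE 0.473), a gene of the other pattern.

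Gzmm and Prf1 gave no such pattern. Gzmm averaged 5.90 ± 0.089 in GEM/anti-CD40 Ab tumors, 5.85 ± 0.098 in anti-CD40 Ab tumors, 5.84 ± 0.127 in GEM tumors and 5.92 ± 0.103 in control tumors (SD, n = 4 each). The representative probe set of Prf1 averaged 5.46 ± 0.104, 5.48 ± 0.115, 5.66 ± 0.107 and 5.45 ± 0.168 in the same groups. Both were above background on all 16 arrays, but Prf1 exceeded the 99th percentile of the background probe sets on 2 arrays only. The other probe set of Prf1 differed more between groups, with 6.12, 6.15, 5.34 and 5.33 in GEM/anti-CD40 Ab tumors, 4.79, 5.40, 5.00 and 5.38 in anti-CD40 Ab tumors, 5.20, 5.18, 5.38 and 5.18 in GEM tumors, and 4.88, 5.37, 4.82 and 4.87 in control tumors. Its difference between GEM/anti-CD40 Ab and control was 0.75 (SE 0.223, limma adjusted p = 0.447), against 0.02 (SE 0.095) for the representative one. Since the probe sets disagree, no direction is given for perforin.

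Along the chymase locus the 2 patterns met between Gzmc and Gzmb, which are neighbours in the gene order. The difference with GEM was 1.98 for Gzmc and 0.74 for Gzmb (SE 0.286), and that with anti-CD40 Ab was 0.28 for Gzmc and 1.71 for Gzmb. At the other end of the expansion, beyond Gzme, the difference with GEM was 0.21 for Ctsg (SE 0.121), which lay below 5 on all 16 arrays. Of the 7 measured neighbours, that is Ctsg, Cma1, Gzmn and the mast cell proteases Mcpt1, Mcpt2, Mcpt4 and Mcpt8, none was called for either agent over both backgrounds by limma. An unadjusted p under 0.05 was reached by 0 with anti-CD40 Ab and by 1 with GEM, against 12.3% and 5.47% of all probe sets. In GEM against control 4 of the 7 (Mcpt1, Mcpt2, Mcpt8 and Gzmn) had such a p, against 5.72% of all probe sets, and none was called. Mcpt1 and Mcpt2 had differences of 1.05 (SE 0.249) and 0.58 (SE 0.154) between GEM and control tumors, with limma adjusted p = 0.701 and 0.757. The mean of 8 mast cell and basophil markers was 5.10 to 5.52 in GEM/anti-CD40 Ab tumors, 5.20 to 5.44 in anti-CD40 Ab tumors, 5.11 to 5.36 in GEM tumors and 5.10 to 5.54 in control tumors.

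**Figure D4:**
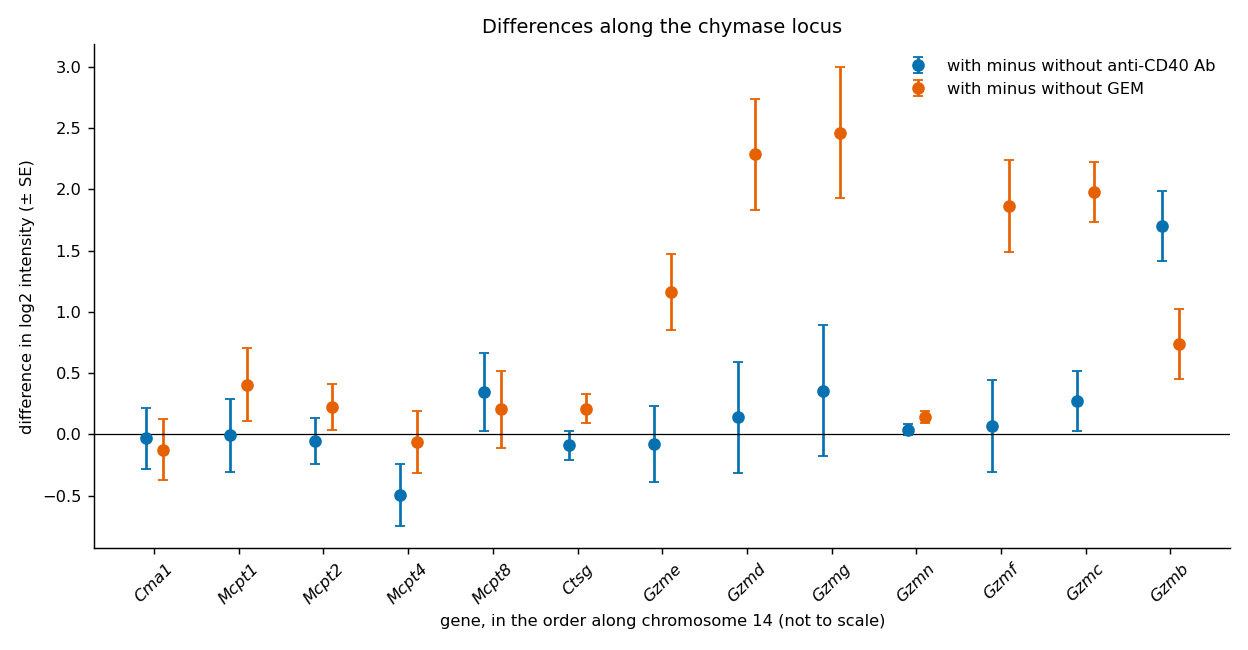
Difference in log2 intensity (y axis, ± SE) between the 8 arrays with and the 8 without anti-CD40 Ab (blue) or GEM (orange) for the genes of the chymase locus in their order along chromosome 14 (x axis, not to scale). Gzme, Gzmd, Gzmg, Gzmf and Gzmc stand at 1.16 to 2.46 with GEM, and Gzmb at 1.71 with anti-CD40 Ab.

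Markers of the cells that make granzymes were set beside the members. The mean of 8 measured T cell markers was 5.56 to 6.86 in GEM/anti-CD40 Ab tumors, 5.78 to 6.93 in anti-CD40 Ab tumors, 5.22 to 5.43 in GEM tumors and 5.36 to 6.19 in control tumors. The mean of 5 NK cell markers was 5.59 to 6.34, 5.45 to 5.76, 5.18 to 5.41 and 5.17 to 5.54 in the same groups. No marker of either list was called in any comparison by limma. With anti-CD40 Ab over both backgrounds, 6 of the 8 T cell markers and all 5 NK cell markers had positive estimates (medians 0.69 and 0.42, against -0.02 for all probe sets), and 5 and 4 had an unadjusted p under 0.05, as 12.3% of all probe sets did. They were led by Cd3g (1.60, SE 0.375, limma adjusted p = 0.0708) and Klrc1, an inhibitory NK receptor chain (0.42, SE 0.108, 0.101). The 2 T cell markers with estimates below 0 were Cd8a and Cd4. Their group means lay between 5.85 and 5.97 for Cd8a and between 6.155 and 6.34 for Cd4. Between GEM and control all 8 T cell markers had negative estimates, with a median of -0.28, and with GEM over both backgrounds 7 of 8 had, with a median of -0.17. An unadjusted p under 0.05 by limma was reached by 4 and 3 of the 8, against 5.72% and 5.47% of all probe sets. Of the 5 NK cell markers, 0 reached it in either comparison. In the GEM tumors, where Gzmc to Gzmg were high, 4 of the 8 T cell markers (Cd3d, Cd3e, Cd4 and Cd8a) were above background on all 4 arrays, Cd3g on 1 array, and Cd2, Cd8b1 and Cd247 on 0. Cd3d was 5.51 to 6.08 there and Cd3g 4.40 to 5.42. Of the NK cell markers, Klrc1 (6.96 to 7.71) and Klrd1, a receptor chain of NK cells and of some T cells (5.34 to 6.30), were above background on all 4 GEM arrays, Klrk1 on 3, and Ncr1 and Klre1 on 0. Ncr1 and Klre1 were at background in the other groups as well. The part of T cell and NK cell content in the granzyme levels was not tested.

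**Figure D5:**
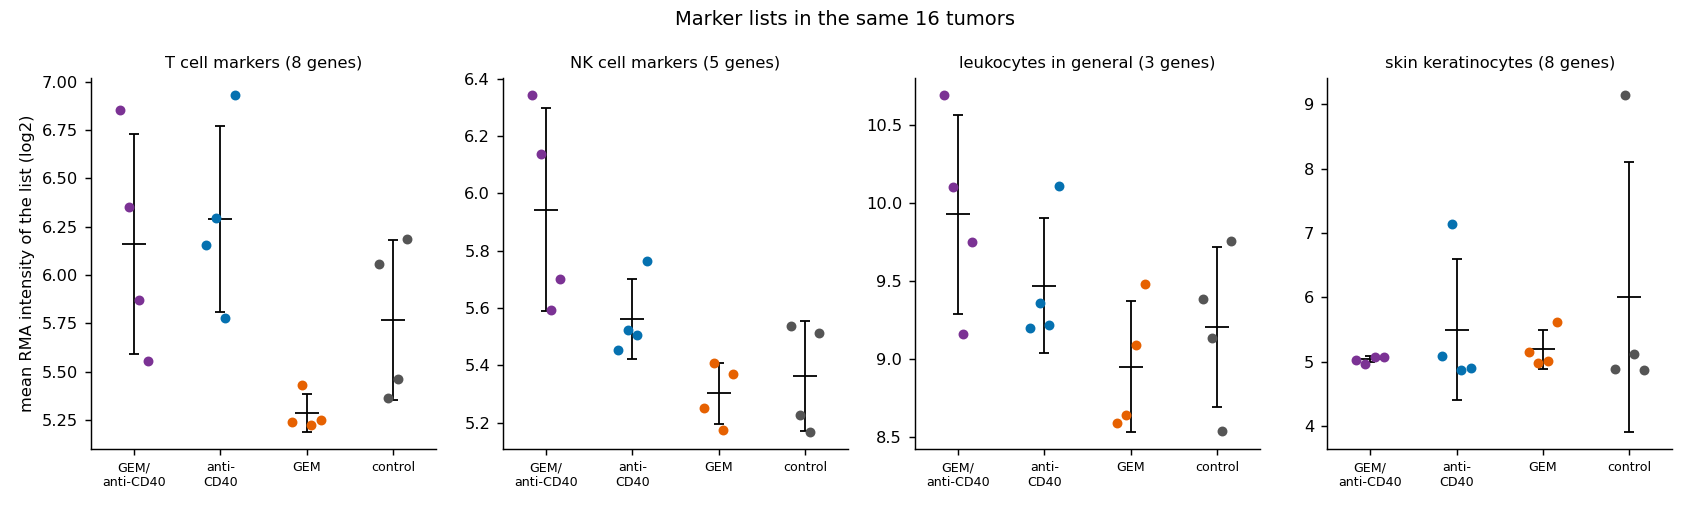
Mean log2 intensity (y axis) of T cell, NK cell, general leukocyte and skin keratinocyte marker lists in GEM/anti-CD40 Ab, anti-CD40 Ab, GEM and control tumors (x axis). Points are arrays and bars the mean and SD of 4. T cell markers lie between 5.22 and 5.43 in GEM tumors, and keratinocyte genes reach 9.14 in control replicate 2.

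Genes around the granzymes were described from lists by role. The counts below at an unadjusted p under 0.05 with anti-CD40 Ab over both backgrounds stand against 12.3% of all probe sets. Of 15 genes for granule assembly and release, 5 had such a p by limma. Of the 15, 2 were called as higher with anti-CD40 Ab over both backgrounds, where 0.371% of all probe sets were called in either direction. These were Srgn, the proteoglycan core on which granzymes are stored (0.96, SE 0.198, limma adjusted p = 0.048), and Ctsc, the dipeptidyl peptidase that activates granzymes (0.54, SE 0.111, 0.048). Both are expressed by myeloid cells too. Srgn had 12.43, 11.59, 10.98 and 11.16 in GEM/anti-CD40 Ab tumors, 10.82, 10.89, 10.99 and 11.47 in anti-CD40 Ab tumors, 10.05, 10.03, 10.29 and 10.58 in GEM tumors, and 10.68, 10.52, 9.97 and 10.54 in control tumors. The 8 tumors with the antibody were all above the 8 without it. Nkg7, a granule protein of T and NK cells, had the next smallest p (1.46, SE 0.321, limma adjusted p = 0.0579), and the list's median was 0.09. With GEM over both backgrounds none of the 15 was called by limma and the median was 0.03. An unadjusted p under 0.05 was reached by 1 of them, a share near that of all probe sets (5.47%).

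Among 5 other molecules of killing none was called with anti-CD40 Ab over both backgrounds by limma, 4 had an unadjusted p under 0.05 and the median was 0.39. Ifng had 8.39, 6.41, 4.92 and 5.08 in GEM/anti-CD40 Ab tumors, 4.77, 5.53, 4.87 and 5.36 in anti-CD40 Ab tumors, 3.62, 4.02, 3.83 and 3.74 in GEM tumors, and 4.39, 3.59, 3.94 and 4.73 in control tumors. It was above background on 0 of the GEM and control arrays, so its difference depends on values at background. Its highest value was in GEM/anti-CD40 Ab replicate 1, the tumor with the highest Gzma and Gzmb (difference 1.68, SE 0.414, limma adjusted p = 0.0855). Tnfsf10, which encodes TRAIL, had a difference of 0.82 (SE 0.208, limma adjusted p = 0.0961). Of 9 transcription factors of cytotoxic cells, none was called, 4 had an unadjusted p under 0.05 and the median was 0.35, with Tbx21 (T-bet), above background on 2 arrays, both with the antibody, at 0.76 (SE 0.198, limma adjusted p = 0.103) and Prdm1 (Blimp-1) at 0.55 (SE 0.166, 0.161). Of 12 measured cytokines and receptors that induce granzymes none was called, 4 had an unadjusted p under 0.05 and the median was 0.11, with Il15ra, which presents interleukin-15, at 0.82 (SE 0.217, 0.106) and Il12b, the p40 chain of interleukin-12, above background on 1 of 16 arrays, at 0.73 (SE 0.238, limma adjusted p = 0.198).

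No granzyme inhibitor or target was called. Of 5 inhibitors, 2 had an unadjusted p under 0.05 with anti-CD40 Ab over both backgrounds by limma (median 0.04). Serpinb9, which encodes the mouse inhibitor of granzyme B, averaged 11.4 ± 0.153 in GEM/anti-CD40 Ab tumors, 11.4 ± 0.025 in anti-CD40 Ab tumors, 11.2 ± 0.233 in GEM tumors and 11.1 ± 0.232 in control tumors (SD, n = 4 each), a difference with the antibody of 0.28 (SE 0.083, limma adjusted p = 0.158). Serpinb9b had a difference with GEM of 0.47 (SE 0.158, limma adjusted p = 0.91). Of 10 measured granzyme targets and death genes 2 had an unadjusted p under 0.05 with the antibody, a share near that of all probe sets (12.3%), and the median was 0.01, with Casp8 at 0.19 (SE 0.045, limma adjusted p = 0.0699) and Bid, the substrate of granzyme B, at 0.19 (SE 0.054, 0.135).

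Of the lists of other cells, a single gene was called as higher with anti-CD40 Ab over both backgrounds, where 0.371% of all probe sets were called in either direction. It was Bst2, a membrane protein of plasmacytoid dendritic cells that interferons induce in many other cells (1.03, SE 0.203, limma adjusted p = 0.0443). The other 3 genes of that list had estimates below 0. None of 4 regulatory T cell markers was called by limma, and with anti-CD40 Ab over both backgrounds 0 had an unadjusted p under 0.05. Such a p was reached by 2 in GEM against control and by 2 in GEM/anti-CD40 Ab against GEM. The shares of all probe sets there were 5.72% and 11.6%. The mean of 3 general leukocyte genes was 9.16 to 10.7 in GEM/anti-CD40 Ab tumors, 9.20 to 10.1 in anti-CD40 Ab tumors, 8.59 to 9.48 in GEM tumors and 8.54 to 9.76 in control tumors. The mean of 5 genes of tumor epithelium was 12.4 to 13.1 on all arrays. GEM/anti-CD40 Ab replicate 4 also carried muscle transcripts (mean of 8 genes 12.5, against 4.57 to 7.83 on the other 15 arrays). It had the lowest Gzma, Gzmb, Gzmf and Prf1 of its group, but not the lowest Gzmc, Gzmd, Gzme, Gzmg, Gzmk or Gzmm. Whether the muscle tissue had a part in these levels was not tested.

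Over the 16 arrays, the genes whose level ran most like that of a member were sought among 2536 genes with a range of at least 1, as a description, since arrays of a group share treatment. For Gzmb they were Tmem123 (Pearson r = 0.946), Cd53 (0.939), Chil1 (0.933), Il1b (0.923) and P2ry14 (0.921). For the representative probe set of Prf1 they were Hba-a2 (0.726), Sulf2 (0.688), Rpl27a (0.678), Cela1 (0.674) and Hs6st2 (0.665). That probe set itself had a range of 0.55, under the 1 asked of these genes. It exceeded the 99th percentile of background on 2 of 16 arrays, and the other Prf1 probe set disagreed with it. These genes are therefore not read as like perforin. For Gzmd, a choice made after the values were seen, they were Tmsb15a (0.807), Ppbp (0.674), Urah (0.648), Cxcl3 (0.643) and Klra8 (0.634), well under the likeness of Gzmd to the 4 granzymes beside it, 0.914 to 0.988. As the probes for Gzmd and Gzme may bind related transcripts, these granzymes may not be fully separate readings.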

How the data were processed

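Total RNA from pieces of PDA30364 tumors, 16 samples in all, was labelled with a 3′ kit and hybridised to mouse 3′ expression arrays. The deposited values are log2 intensities that the authors normalised by RMA (robust multichip averaging, version not given in the sources used here). No counts or depth exist for arrays, and the number of tumors limits the precision. The table has 45101 probe sets, of which 45037 were tested after removal of 64 array controls. 34945 carried a single gene, 932 several and 9160 none in the annotation, and symbols were updated through Entrez identifiers. Each comparison of groups was fitted on its own arrays with limma (version 3.58.1, R 4.3.3), two-sided, with Benjamini-Hochberg adjustment over all probe sets and a threshold of 0.05. The additive fits and the interaction used all 16 arrays. The fits were tested on simulated data. Promoter windows were aligned with Biopython (1.88), using the first window of a gene where there was more than 1 (Gzmm). Named were all members, in each other list any gene called and otherwise up to 2 with the smallest p in the comparison described, and the 5 genes most like Gzmb and Prf1. Nkg7, Ctsg, Mcpt8, Gzmn and the T cell and NK cell markers other than Cd3g, Cd3d, Klrc1 and Klrd1 were added after their values were seen. The members and lists were chosen with earlier results of these data known. P-values measure the spread between these tumors.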

Additional observations from a re-analysis of the deposited data

Results flagged for a closer look

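Of 40 groups of 4 arrays examined for the 10 members, 1 held an array far from the others, where chance alone gives about 1 in 20. Gzmm in GEM/anti-CD40 Ab replicate 3 was at 5.77, with the next array at 5.93 and the highest at 5.96, a gap of 0.842 of the range. The range in question was 0.19 on the log2 scale.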

How the results depend on the processing

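The number of members called was recomputed under each alternative, and the changes of members with an unadjusted p under 0.05 (37 of 80) were followed one by one. Of the other 43 changes, 26 changed sign under some alternative and 0 passed under any.

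With all 16 arrays in one fit, 2 members were called for GEM/anti-CD40 Ab against control. With a trended and robust variance prior, and likewise with GEM replicates 3 and 4 averaged, 0 were called for anti-CD40 Ab and 0 for GEM over both backgrounds. Array weights gave 3 for anti-CD40 Ab over both backgrounds (Gzma, Gzmb and Gzmk). Without the 3 arrays with skin or muscle genes (control replicate 2, anti-CD40 Ab replicate 2 and GEM/anti-CD40 Ab replicate 4), a choice made after seeing the data, 0 were called for anti-CD40 Ab, 3 for GEM over both backgrounds and 3 for GEM against control. Leaving out 1 array gave 0 to 3 members for GEM against control, 0 to 2 for anti-CD40 Ab and 0 to 3 for GEM over both backgrounds. The replicate numbers did not pair the arrays: 10 of 24 same-numbered pairs had a correlation of deviations over 0.1 (-0.27 to 0.27), and 1 of 16 arrays correlated best with its own number. With the replicate block, 0 members were called in each comparison of groups and 1 each for anti-CD40 Ab and GEM over both backgrounds, as without it. Of the followed changes 1 reversed: Prf1 in GEM/anti-CD40 Ab against GEM was -0.20 by its representative and 0.15 by the mean of its 2 probe sets.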
